A study of Mus musculus with 186 samples.

Results

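The effect of Akap11 loss on the striatum of 12-week-old mice was described from 10 RNA-seq libraries, 5 from Akap11 -/- (KO) and 5 from wild-type (WT) animals, out of 186 libraries in all. The libraries were chosen by the tissue, genotype and age given in the labels, and every gene with enough counts was tested, so no measured value entered the choice. The study profiled poly(A) RNA of striatum, thalamus (TH), substantia nigra (SN), hippocampus (HP) and both prefrontal (PFC) and somatosensory (SSC) cortex, dissected from frozen brains of Akap11 mutant mice at 4 and 12 weeks of age in WT, heterozygous (Akap11 +/-, HET) and KO animals. The 5 HET striatal libraries of 12 weeks are given beside the comparison, as are the 10 KO and WT striatal libraries of 4 weeks and the 50 KO and WT libraries of the other 5 regions at 12 weeks. The labels name no strain, sex, treatment or construction of the mutant allele, and whether each library is 1 animal is not stated, so the p-values measure the spread between these libraries.

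AKAP11 belongs to the A-kinase anchoring proteins, scaffolds that bind the regulatory subunits of cAMP-dependent protein kinase (PKA) and place the kinase near its substrates. AKAP11 also binds the kinase GSK3 and protein phosphatase 1, and it serves as a receptor that delivers PKA regulatory subunits to autophagy. Rare truncating variants of the human gene have been associated with schizophrenia and bipolar disorder. The striatum is built mostly of inhibitory spiny projection neurons, which divide into a direct pathway that carries the dopamine D1 receptor with the peptides substance P and dynorphin, and an indirect pathway that carries the D2 receptor, an adenosine receptor encoded by Adora2a and enkephalin. In both, dopamine, adenosine and other transmitters act largely through G proteins, cAMP and PKA, and phosphodiesterases, regulators of G protein signalling and the calcium-dependent phosphatase calcineurin set the strength of that signal.

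The 15 striatal libraries of 12 weeks held 31.9 to 52.2 M (mega) estimated counts each. Defining markers of projection neurons were among the abundant genes of every library: Ppp1r1b, which encodes the PKA target DARPP-32, lay between 2481 and 3871 CPM (the count relative to the TMM-scaled library total) over the KO and WT libraries. Of these, 2 WT libraries (WT 3 and WT 5) and 2 KO libraries (KO 2 and KO 5) held more ependymal RNA than the others, with an ependymal score (mean log2(CPM + 1) over the tested markers of the list) of 2.63, 2.24, 2.56 and 2.18 against 0.83 to 1.42 in the other 6, and HET 1 had a score of 2.51. Scores of subventricular zone and septal neuron markers were also higher in these libraries. Results were therefore also computed without these 5 libraries, an alternative chosen after the data had been seen. In bulk tissue, fewer cells of a type and less RNA per cell cannot be told apart.

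Akap11 itself was nearly lost in KO. Its level was 306, 354, 315, 376 and 340 CPM in WT 1 to 5, and 20.9, 24.3, 22.9, 15.4 and 21.1 CPM in KO 1 to 5, or 6.19% of the WT mean. All 5 KO libraries lay far below all WT libraries, as labelled. The HET libraries held 182 ± 7.44 CPM (SD, n = 5), between both groups. The fitted change was -4.01 ± 0.10 (log2 fold change ± SE; edgeR quasi-likelihood test, Benjamini-Hochberg adjusted p = 2.6e-13), and the gene lies at chr14:78492246-78536808 on the minus strand (GRCm38).

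Of 15622 genes tested, 691 (4.42%) were called, which here means an adjusted p under 0.05. In KO, 285 genes (1.82%) rose and 406 (2.60%) fell. The KO and WT libraries did not overlap for 538 of the called genes, against 875 (5.60%) of all genes tested. Most changes were small: 407 of the 691 (59.0%) were under 0.5 on the log2 scale in size, with a median of 0.40 for the risers and -0.43 for the fallers. Large changes were mostly falls, with 88 genes below -1 and 30 above 1. Of the 12 called genes with a WT mean of at least 1000 CPM, 11 fell. The share of all tested genes at that level that was called is not given here. Some of these calls were lost with 1 library left out, among them the fallers Pde10a, Scn4b and Atp2b1 and the riser Itm2c, given below. By biotype, 656 called genes were protein coding, 12 were antisense and 12 were lincRNA genes. Without KO 5 the count was 428 (176 higher, 252 lower), and without the 5 libraries rich in ependymal RNA it was 583 (257 higher, 326 lower). The HET libraries did not show this breadth: against WT only Akap11 was called in HET (0.00640% of genes tested), with 334 genes at an unadjusted p under 0.05. KO against HET, which uses the same KO libraries, gave 749 calls (4.79%).

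**Figure D1:**
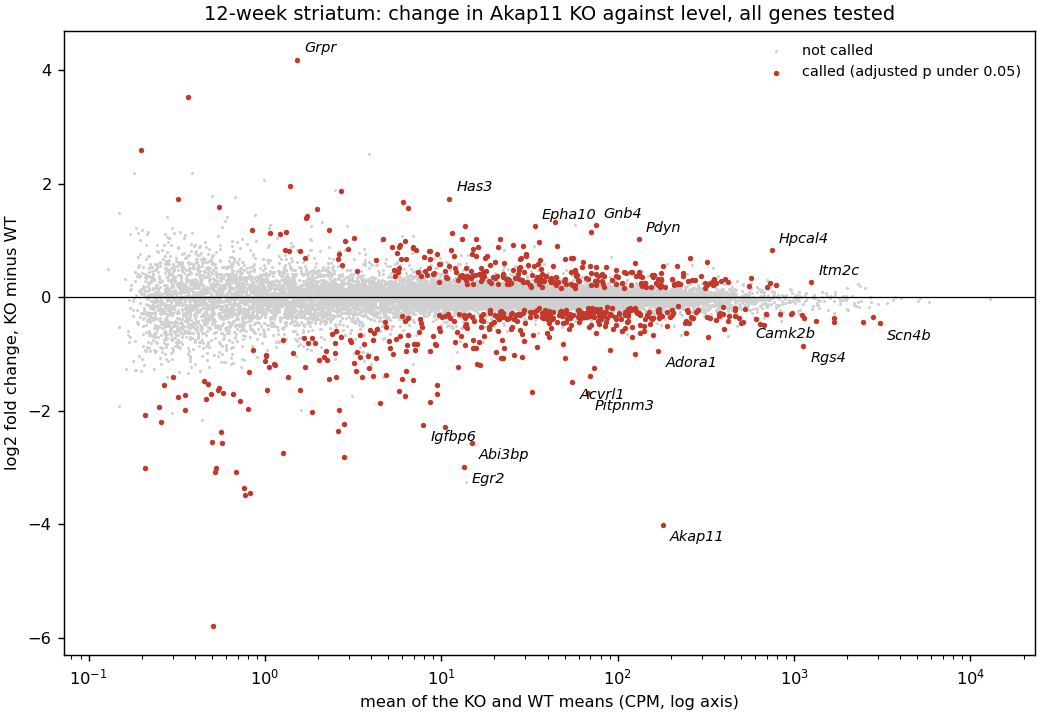
Change in KO (log2 fold change, KO minus WT) against level (mean of the KO and WT means in CPM, log axis) for all 15622 genes tested in 12-week striatum. Red points are the 691 called genes; Akap11 is the lowest of the well-expressed genes at -4.01, and the called genes above 1000 CPM lie mostly below 0.

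The largest falls after Akap11, taken among called genes whose log2 CPM averaged 1 or more and whose KO and WT libraries did not overlap, began with Egr2. Egr2, an activity-regulated zinc finger transcription factor, stood at 10.2, 20.9, 31.4, 21.8 and 35.3 CPM in WT and at 1.40, 3.92, 0.946, 2.64 and 6.09 CPM in KO. Although both groups spread widely, every KO library was below the lowest WT library, and the change was -2.99 ± 0.45 (adjusted p = 0.000975). Abi3bp, an extracellular matrix protein, was tight in both groups, at 23.2 to 28.0 CPM in WT and 2.79 to 5.10 CPM in KO (-2.56 ± 0.12, adjusted p = 1.5e-09). Igfbp6, which binds insulin-like growth factors, fell from 13.1 ± 1.10 to 2.74 ± 0.457 CPM (SD, n = 5 each; -2.25 ± 0.11, adjusted p = 1.5e-09). Gpx6, a glutathione peroxidase, held 11.5 to 21.9 CPM in WT and 1.87 to 6.64 CPM in KO. Sec14l3 fell to 14.3% of its WT mean, Tmprss6 to 21.2%, and Dkk2, a secreted Wnt pathway modulator, to 25.1%. The smooth muscle gene Tagln fell to 27.9% (adjusted p = 0.00756), with WT 1 and WT 2 at 16.9 and 24.2 CPM and the other 3 WT libraries at 8.14 to 9.05 CPM.

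Other strong falls were chosen after their values were seen. Pitpnm3, a phosphatidylinositol transfer protein of the membrane-associated family, stood at 103, 117, 101, 87.6 and 106 CPM in WT and at 30.4, 38.2, 30.3, 25.1 and 35.4 CPM in KO. The groups were far apart, the HET libraries held 102 ± 8.42 CPM, and the change was -1.69 ± 0.10 (adjusted p = 3.9e-08). Car12, a carbonic anhydrase, fell to 38.5% of its WT mean (-1.38 ± 0.23, adjusted p = 0.00212), again with WT 1 and WT 2, at 138 and 141 CPM, above the other WT libraries at 69.3 to 77.4 CPM.

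Among genes past the same limit on level, the largest rises were smaller in fold than the largest falls. Has3, a hyaluronan synthase, stood at 4.05, 5.78, 4.68, 5.32 and 5.77 CPM in WT and at 16.2, 13.1, 16.1, 23.6 and 16.2 CPM in KO. The lowest KO library was far above the highest WT library, and the change was 1.74 ± 0.15 (adjusted p = 4.3e-06). Mxd3, a repressor of the MYC network, rose from 1.16 ± 0.644 to 4.23 ± 1.24 CPM (SD, n = 5 each), Epha10, a kinase-deficient ephrin receptor, from 19.8 ± 6.0 to 47.7 ± 6.48 CPM, and Adgra1, an adhesion G protein-coupled receptor, from 8.63 ± 2.22 to 17.6 ± 2.01 CPM. Apold1 and Tunar were less firm. Apold1 (1.58 ± 0.41, adjusted p = 0.0356) lost its call in 7 of the 10 fits that left out 1 library, with an adjusted p of up to 0.0921 without KO 4, and the long non-coding gene Tunar (1.14 ± 0.27, adjusted p = 0.0217) lost it in 4, with up to 0.0591 without KO 2. Neither was called without the 5 ependymal libraries (adjusted p = 0.0761 and 0.0905). Below that limit, the largest rise was that of Grpr, the receptor of gastrin-releasing peptide, which was chosen after its values were seen. Grpr was at 0 to 0.432 CPM in WT and at 2.13 to 3.69 CPM in KO (4.19 ± 0.60, adjusted p = 0.000569), so that a gene close to 0 in WT was measured in every KO library.

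**Figure D2:**
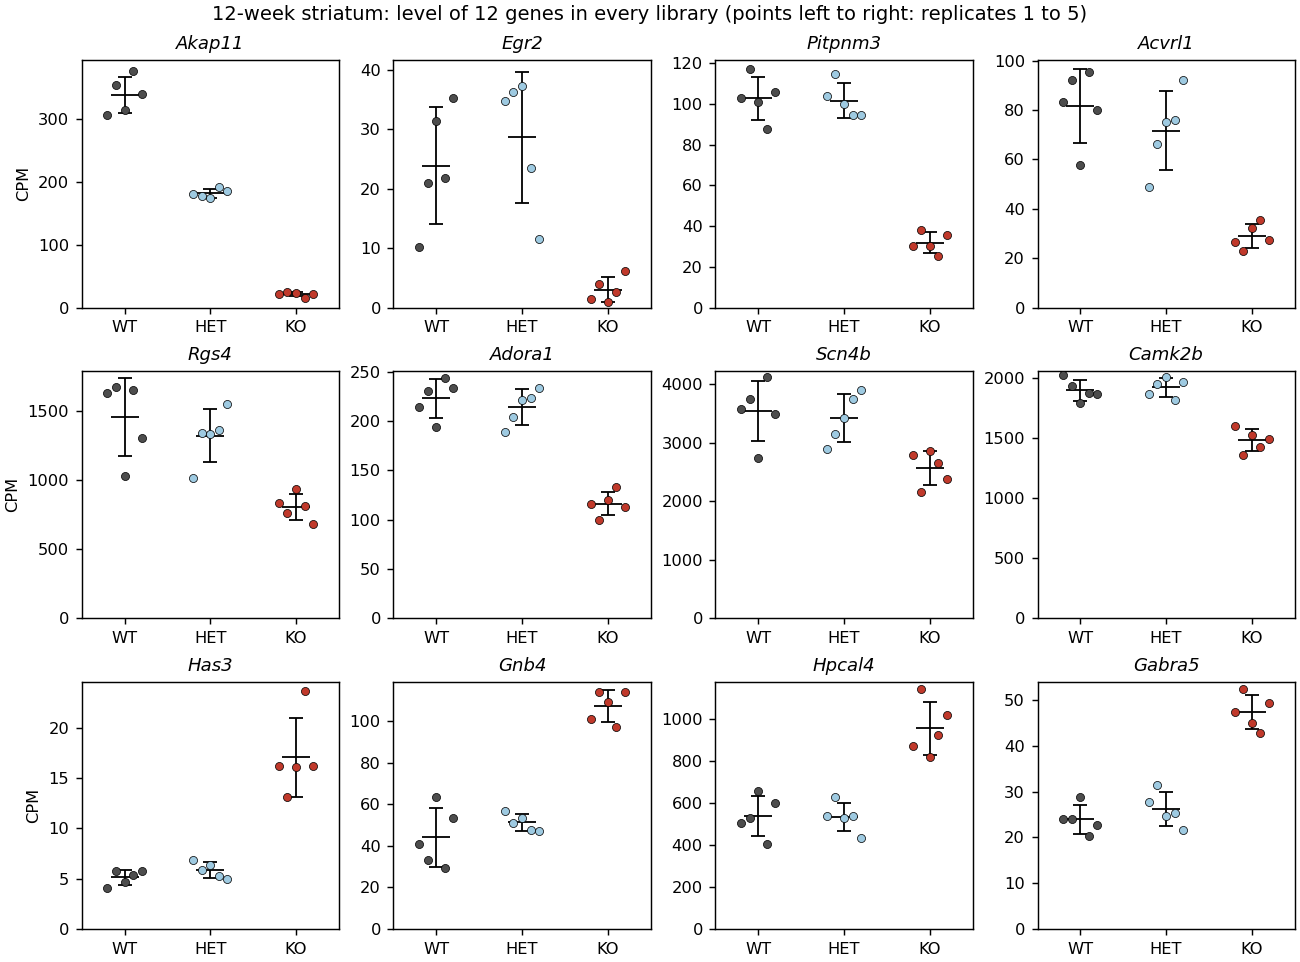
Level in CPM of 12 genes in each library of 12-week striatum, by genotype (WT, HET, KO; 5 libraries each). Bars give the mean and SD; for 11 of the 12 genes no KO library overlaps a WT library, while KO 1 and KO 3 of Scn4b lie above WT 3.

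Promoter sequences are shown for 4 called genes because each holds a short motif bound by a factor of the cAMP or activity-regulated pathways. The motif strings were looked for on both strands in windows from 250 bases before to 50 bases after the RefSeq start (GRCm38.p6). TGACGTCA is the full cAMP response element (CRE), bound by CREB, which PKA phosphorylates. GCGTGGGCG is the site of the EGR zinc finger factors. For the serum response factor (SRF), 1 form of its site, the CArG box, was searched, in the letters capitalised in the Egr2 sequence; this string was added after the sequences were seen. Up to 200 bases before the start are printed 5′ to 3′ on the gene's strand, with the motif in capitals. The Egr2 window lies at chr10:67537669-67537868 (plus strand) and holds the SRF string, beside the start of a gene at 12.5% of its WT mean:
Egr2: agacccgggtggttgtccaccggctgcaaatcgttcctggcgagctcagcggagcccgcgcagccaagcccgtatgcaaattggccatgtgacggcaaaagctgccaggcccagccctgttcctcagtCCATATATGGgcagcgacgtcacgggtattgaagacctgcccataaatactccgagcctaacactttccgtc
Ffar3, a receptor of short-chain fatty acids that fell (-1.63 ± 0.27, adjusted p = 0.00176), and Hs3st2, a heparan sulfate sulfotransferase that rose (0.89 ± 0.11, adjusted p = 0.000131), both hold the CRE, at chr7:30856179-30856378 (minus strand) and chr7:121392096-121392289 (plus strand), and were chosen after their values were seen:
Ffar3: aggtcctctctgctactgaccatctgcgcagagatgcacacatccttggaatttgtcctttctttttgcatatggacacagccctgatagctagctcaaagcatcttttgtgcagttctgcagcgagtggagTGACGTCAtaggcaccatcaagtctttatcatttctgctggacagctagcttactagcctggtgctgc
Hs3st2: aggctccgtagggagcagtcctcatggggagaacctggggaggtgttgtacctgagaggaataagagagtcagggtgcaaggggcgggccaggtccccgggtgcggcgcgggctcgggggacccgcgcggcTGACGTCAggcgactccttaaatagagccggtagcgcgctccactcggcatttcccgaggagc
Gpr153, an orphan receptor that fell (-0.78 ± 0.12, adjusted p = 0.000736), holds the EGR string at chr4:152273912-152274111 (plus strand):
Gpr153: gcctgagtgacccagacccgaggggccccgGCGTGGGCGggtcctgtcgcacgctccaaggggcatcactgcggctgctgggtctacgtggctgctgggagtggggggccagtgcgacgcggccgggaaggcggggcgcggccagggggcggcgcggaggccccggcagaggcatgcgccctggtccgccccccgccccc

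Over the promoters of 11581 tested genes, the CRE was found in 3.51%, the EGR string in 1.30% and the SRF string in 0.0950%. Of the called genes with a promoter in the table, 10 of 218 risers (4.59%) and 6 of 284 fallers (2.11%) held a CRE. The EGR string was in 0 of 218 risers and in 6 of 284 fallers (2.11%). The genes with a CRE thus moved in both directions, as Ffar3 and Hs3st2 show, and Sst, the somatostatin gene, with its CRE at -48 from the start, rose. These matches describe the printed letters and do not locate a bound factor.

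The genes closest to AKAP11 in function hardly changed at the RNA level. Of 13 PKA subunits, inhibitors and AKAP11 partners, all tested, 0 rose and 1 fell (7.69% called, beside 4.42% over all genes tested). With 1 library left out, 0 to 1 rose and 1 fell. The list's median change was -0.03 and its members lay between -0.34 and 0.22, beside a median of 0.01 over all genes tested. The catalytic subunit genes Prkaca and Prkacb held 190 ± 3.18 and 664 ± 51.6 CPM in WT and 191 ± 10.6 and 671 ± 32.2 CPM in KO (SD, n = 5 each). The regulatory subunit genes Prkar1a, Prkar1b, Prkar2a and Prkar2b stood at 97.5%, 99.2%, 117% and 97.8% of WT, with adjusted p between 0.235 and 0.964. The PKA inhibitors Pkia, Pkib and Pkig and the tether genes Vapa and Vapb were at 92.5% to 102% of WT, and none was called. Gsk3b was the member that fell: 326, 372, 317, 417 and 368 CPM in WT against 278, 268, 309, 289 and 282 CPM in KO (-0.34 ± 0.08, adjusted p = 0.0172). The groups were adjacent without overlap, the call was lost without the 5 ependymal libraries (-0.35, adjusted p = 0.0581), and the paralog Gsk3a was not called (-0.12 ± 0.05, adjusted p = 0.279). Among 19 other A-kinase anchoring proteins tested, Akap3 was the 1 called, at 0.145 ± 0.0735 CPM in WT and 0.497 ± 0.109 CPM in KO, a level under 1 CPM, and its call was lost without the 5 libraries (adjusted p = 0.146).

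In the cAMP pathway, 1 of 26 genes that make or break down cAMP rose and 2 fell (11.5% called, beside 4.42% over all genes tested). Adcy1, a calcium-stimulated adenylyl cyclase that is not the main striatal form, stood at 222, 287, 199, 314 and 235 CPM in WT and at 420, 387, 396, 369 and 376 CPM in KO. All KO libraries were above all WT libraries (0.63 ± 0.10, adjusted p = 0.00164). Adcy5, the main cyclase of projection neurons, was at 2157 ± 216 and 1859 ± 152 CPM (SD, n = 5 each) and was not called (-0.21 ± 0.07, adjusted p = 0.126). Of the phosphodiesterases, Pde2a fell from 1051 ± 80.9 to 862 ± 54.3 CPM (-0.29 ± 0.06, adjusted p = 0.0110). Pde10a, the most abundant striatal phosphodiesterase gene, was at 3010, 3348, 1997, 3137 and 2593 CPM in WT and at 2178, 1886, 2198, 2236 and 1965 CPM in KO. WT 3 lay within the KO range, and the call (-0.43 ± 0.11, adjusted p = 0.0374) was lost in 8 of 10 fits that left out a library, with an adjusted p of up to 0.0995 without KO 5. Pde10a was called without the 5 ependymal libraries, at -0.52 (adjusted p = 0.000481).

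Among G protein subunits the called genes rose, and their regulators went both ways. Of 27 subunit genes 2 rose and 0 fell (7.41% called, beside 4.42% over all genes tested). Gnb4, a beta subunit, stood at 40.7, 33.3, 63.3, 29.4 and 53.5 CPM in WT and at 101, 114, 109, 97.0 and 114 CPM in KO (1.28 ± 0.16, adjusted p = 0.000131). Gng4, a gamma subunit, rose by 0.90 ± 0.19 (adjusted p = 0.0119), with WT 3 at 31.5 CPM inside the KO range of 30.9 to 49.2 CPM. Of 18 regulators of G protein signalling, which speed the return of G proteins to rest, 2 rose and 2 fell (22.2% called). Rgs4 was at 1624, 1667, 1028, 1646 and 1302 CPM in WT and at 833, 763, 933, 808 and 680 CPM in KO, so even the lowest WT library was above all KO libraries (-0.86 ± 0.13, adjusted p = 0.00109). Rgs9, whose striatal form acts on dopamine receptor signalling, fell from 791 ± 77.1 to 564 ± 44.7 CPM (SD, n = 5 each; -0.49 ± 0.08, adjusted p = 0.00178). Rgs2 went the other way, from 136 to 234 CPM in WT to 262 to 380 CPM in KO (0.69 ± 0.15, adjusted p = 0.0121). Rgs6 rose by 0.32 ± 0.09 (adjusted p = 0.0452), a call lost in 7 of 10 fits that left out a library, with up to 0.134 without WT 1, and at 0.17 without the 5 ependymal libraries (adjusted p = 0.411).

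In the modulatory receptor lists below, 8.70% and 8.33% of tested genes were called, beside 4.42% over all genes tested. Of 23 muscarinic, adenosine, opioid, cannabinoid and orphan receptor genes, 1 rose and 1 fell, and 2 rose and 3 fell without the 5 ependymal libraries. Adora1, the adenosine A1 receptor, stood at 214, 231, 194, 244 and 234 CPM in WT and at 116, 99.9, 120, 133 and 113 CPM in KO. It stood at 52.2% of WT with a tight spread (-0.94 ± 0.08, adjusted p = 4.5e-06), and HET at 215 ± 18.1 CPM (SD, n = 5). The other abundant adenosine receptor gene, Adora2a, was at 548 ± 73.4 and 502 ± 47.2 CPM (adjusted p = 0.577). Chrm5, a muscarinic receptor of low level, rose from 0.566 ± 0.184 to 2.20 ± 0.624 CPM (1.96 ± 0.29, adjusted p = 0.000873). Among 24 monoamine receptor genes, Htr2c rose (0.54 ± 0.10, adjusted p = 0.00527) and Htr4 fell (-1.40 ± 0.24, adjusted p = 0.00255), the latter not called without the 5 libraries (-1.03, adjusted p = 0.0632). The dopamine receptors Drd1 and Drd2 were at 95.1% and 87.4% of WT, with adjusted p of 0.696 and 0.388.

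Calcium signalling genes fell more often than they rose. Of 28 calcium-calmodulin kinases, their regulators and calcineurin genes, 5 fell and 1 rose (21.4% called, beside 4.42% over all genes tested), with a median of -0.14. Camk2b, a subunit of the synaptic kinase CaMKII, stood at 2028, 1937, 1794, 1879 and 1866 CPM in WT and at 1599, 1358, 1530, 1430 and 1493 CPM in KO. The groups did not overlap (-0.36 ± 0.05, adjusted p = 0.000782). Camkk2, a kinase that activates other CaM kinases, fell to 61.8% of WT (-0.70 ± 0.12, adjusted p = 0.00196), and Ppp3ca, the calcineurin catalytic subunit, from 3143 ± 257 to 2478 ± 199 CPM (SD, n = 5 each; -0.34 ± 0.07, adjusted p = 0.0123). Hpcal4, a calcium sensor of the visinin-like family, was the member that rose, from 502, 526, 656, 403 and 601 CPM to 872, 1140, 817, 923 and 1018 CPM (0.83 ± 0.12, adjusted p = 0.000863). Atp2b1, a plasma membrane calcium pump, was at 1464 to 2322 CPM in WT and 1348 to 1566 CPM in KO; its call (-0.43 ± 0.10, adjusted p = 0.0215) was lost in 6 of 10 fits that left out a library, with up to 0.0639 without KO 5, while without the 5 ependymal libraries it was called at -0.52 (adjusted p = 0.00203). Cacnb3, a calcium channel beta subunit, fell by 0.50 on the log2 scale (adjusted p = 0.0184), a call lost without WT 4 (adjusted p = 0.0512) and in 2 of the 10 fits, and also without the 5 ependymal libraries (-0.39, adjusted p = 0.0978). Left-out libraries moved the number of fallers of this list between 4 and 9 (9 without WT 3).

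**Figure D3:**
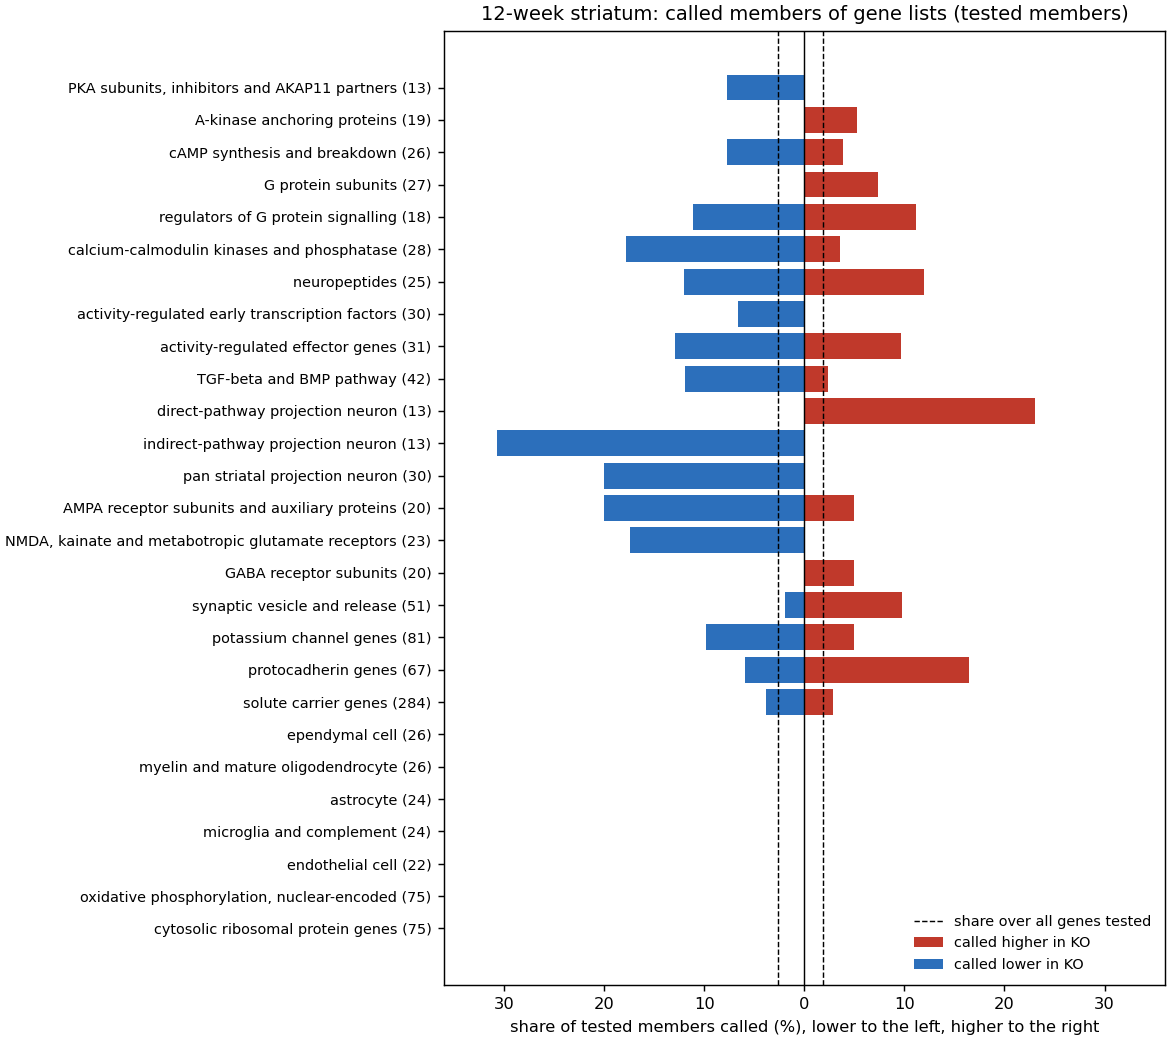
Share of tested members of each gene list (number tested in brackets) called lower (left, blue) or higher (right, red) in KO of 12-week striatum, in percent. Dashed lines give the share over all genes tested, 2.60% lower and 1.82% higher; glial, endothelial, oxidative phosphorylation and ribosomal lists have no called member.

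Markers of the projection neuron types did not move as one. In the direct-pathway list 3 of 13 markers rose and 0 fell (23.1% called, beside 4.42% over all genes tested), and the list's median was 0.04. Tac1, which encodes substance P, was at 193, 217, 173, 243 and 179 CPM in WT and at 283, 245, 265, 312 and 252 CPM in KO (0.43 ± 0.09, adjusted p = 0.0129). Pdyn, the dynorphin precursor, was at 105, 79.7, 113, 45.6 and 89.7 CPM in WT and at 143, 233, 159, 173 and 177 CPM in KO (1.03 ± 0.23, adjusted p = 0.0157). Both separated the groups, and Gnb4, given above, was the third. Without the 5 ependymal libraries Pdyn (1.05, adjusted p = 0.0759) and Tac1 (0.40, adjusted p = 0.0521) kept their size and were not called. The mean score of the list was 5.79 to 5.91 in WT and 6.06 to 6.11 in KO. This score includes the 3 risers, while the list's median change was 0.04 and Drd1, given above, was not called.

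The indirect-pathway list showed 4 fallers and 0 risers among 13 markers (30.8% called, beside 4.42% over all genes tested), with a median of -0.19. Plxdc1 was at 29.8 to 35.4 CPM in WT and 18.9 to 26.0 CPM in KO (-0.58 ± 0.10, adjusted p = 0.00184). Necab1, a calcium-binding protein, fell by 0.60 on the log2 scale, Ptprm, a receptor phosphatase, by 0.36 and the kainate receptor Grik3 by 0.31, with adjusted p of 0.0102, 0.00788 and 0.00548. These were not the transmitter genes that define the type: Penk, the enkephalin precursor, was at 2215 ± 253 CPM in WT and 2537 ± 133 CPM in KO (SD, n = 5 each; 0.20 ± 0.08, adjusted p = 0.241), and Drd2 and Adora2a, given above, were not called either. The list's score was 6.28 to 6.49 in WT and 6.17 to 6.31 in KO, where WT 3 at 6.28 was the one WT library within the KO range.

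Markers shared by both types fell in part. Of 30 genes, 6 fell and 0 rose, the median was -0.11, and 24 were not called, among them Ppp1r1b at 93.4% of WT (adjusted p = 0.738). Rgs9, described above, and Rarb, a retinoic acid receptor of projection neurons, were the firmest; Rarb went from 177, 198, 163, 179 and 172 CPM to 134, 136, 137, 144 and 138 CPM (-0.37 ± 0.07, adjusted p = 0.00442). Strn, the scaffold striatin, fell by 0.41 on the log2 scale (adjusted p = 0.0151). Scn4b, a sodium channel beta subunit, was among the most abundant genes, at 3578, 3747, 2742, 4128 and 3490 CPM in WT and at 2785, 2153, 2849, 2655 and 2384 CPM in KO. WT 3 lay within the KO range, and the call (-0.46 ± 0.11, adjusted p = 0.0203) was lost in 3 of 10 fits that left out a library, with up to 0.0629 without KO 5. Bcl11b, a transcription factor of striatal development, was called at an adjusted p of 0.0385 (-0.33 ± 0.09) and lost the call in 9 of those fits, with up to 0.103 without WT 1. Both were called without the 5 ependymal libraries, Scn4b at -0.46 (adjusted p = 0.0106) and Bcl11b at -0.37 (adjusted p = 0.00269). The number of fallers in this list was 3 without KO 5, 10 without WT 3, and 9 without the 5 ependymal libraries. WT 3, with the highest ependymal score of the WT libraries, also had the lowest score of this list (8.67, against 8.89 to 9.07 in the other WT libraries and 8.69 to 8.85 in KO). The part of these scores in the falls was not tested.

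**Figure D4:**
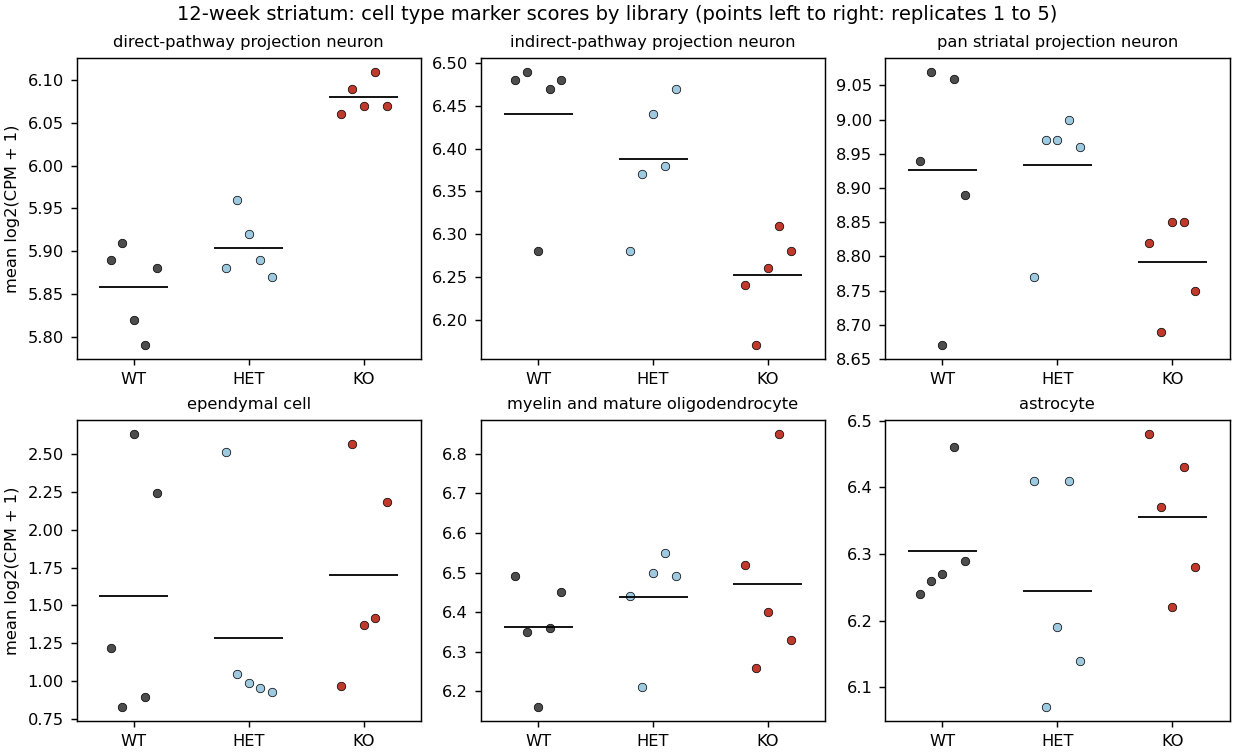
Mean log2(CPM + 1) of 6 cell type marker lists in each library of 12-week striatum, by genotype; lines are means of 5 libraries. The direct-pathway scores of KO (6.06 to 6.11) lie above all WT scores (5.79 to 5.91), and the ependymal score is high in WT 3, WT 5, KO 2, KO 5 and HET 1. The direct-pathway score includes the 3 called risers, and the list's median log2 fold change was 0.04.

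Genes that are enriched in striatum changed more often than others, and mostly downward. The set was defined from WT libraries of 4 weeks, which were not part of the comparison, as genes at least 1 log2 unit higher in striatum than in each other region. Of its 382 tested genes, 78 (20.4%) were called, 65 lower and 13 higher, with a median change of -0.13. Of 1672 genes at least 1 log2 unit higher in PFC or SSC than in striatum, 128 (7.66%) were called, 79 higher and 49 lower, with a median of 0.04. In neither set, 485 of 13568 genes (3.57%) were called. Of 11 tested markers of cortical excitatory neurons 1 was called, Zbtb18, a transcriptional repressor, and it fell (-0.53 ± 0.09, adjusted p = 0.00157); without the 5 ependymal libraries this list had 2 risers and 1 faller. Without the 5 ependymal libraries the striatum-enriched set had 64 fallers and 11 risers.

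Peptide genes moved both ways. Of 25 neuropeptide and processing genes, 3 rose and 3 fell (24.0% called, beside 4.42% over all genes tested), with a list median of 0.22. Without the 5 ependymal libraries 1 rose and 3 fell. Besides Tac1 and Pdyn, Sst, a marker of a striatal interneuron class, rose slightly, from 144 to 173 CPM in WT to 172 to 218 CPM in KO (0.30 ± 0.06, adjusted p = 0.00884). Chga, a granin of dense-core vesicles, stood at 85.2, 81.1, 87.9, 83.1 and 74.3 CPM in WT and at 57.5, 62.8, 55.7, 54.9 and 63.2 CPM in KO (-0.49 ± 0.06, adjusted p = 0.000129). Pcsk2, a convertase that cuts peptide precursors, fell from 547 ± 40.1 to 426 ± 21.1 CPM (SD, n = 5 each), and Nxph4, a neurexophilin, from 1.96 ± 0.426 to 0.729 ± 0.256 CPM.

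The activity-regulated transcription factors did not fall as a group. Of 30 tested, 2 fell and 0 rose (6.67% called, beside 4.42% over all genes tested), and the list's median was 0.24. Beside Egr2, Ier5 was called (-0.31 ± 0.08, adjusted p = 0.0272), in a call lost in 5 of 10 fits that left out a library, with up to 0.0788 without KO 5, and without the 5 ependymal libraries (adjusted p = 0.0832). The related genes Egr1 and Egr3 were at 557 ± 88.9 and 138 ± 47.9 CPM in WT and at 394 ± 66.8 and 88.6 ± 5.69 CPM in KO (SD, n = 5 each) and were not called (adjusted p = 0.124 and 0.109), and Egr4 stood at 125% of WT (adjusted p = 0.513). Fos ranged from 6.55 to 46.1 CPM in WT and from 9.04 to 35.1 CPM in KO, Nr4a1 from 46.4 to 228 CPM and from 142 to 334 CPM, and Npas4 from 11.1 to 66.5 CPM and from 33.1 to 60.8 CPM. The KO and WT ranges overlapped for Fos, Nr4a1 and Npas4, and none of these was called. For Egr3 the ranges did not overlap (99.7 to 191 CPM in WT, 82.7 to 96.2 CPM in KO), although it was not called. Junb was at 97.0% of WT and Arc, a synaptic effector, at 79.8%, and neither was called. Among 31 effector genes 3 rose and 4 fell (22.6% called). Nrip3 rose from 31.5 ± 5.29 to 58.7 ± 8.50 CPM (0.90 ± 0.11, adjusted p = 0.000151), and Nptx1, a pentraxin that gathers glutamate receptors, fell from 27.2 ± 2.98 to 13.8 ± 3.75 CPM (-0.97 ± 0.15, adjusted p = 0.00119).

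Genes of the ERK pathway, which links receptors to these transcription factors, were called in 3 of 23 cases, 1 higher and 2 lower. Elk1, a partner of SRF, fell from 91.1 ± 11.7 to 65.7 ± 4.30 CPM (SD, n = 5 each; -0.47 ± 0.09, adjusted p = 0.00661), and was not called without the 5 ependymal libraries (-0.39, adjusted p = 0.103).

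In the TGF-beta and BMP pathway 5 of 42 genes fell and 1 rose (14.3% called, beside 4.42% over all genes tested), with a median of -0.10. The ligand subunit gene Inhba was at 11.7, 8.80, 6.77, 8.67 and 7.52 CPM in WT and at 2.62, 5.10, 3.01, 2.69 and 2.64 CPM in KO (-1.44 ± 0.20, adjusted p = 0.000492). Fst, which encodes follistatin, an activin antagonist, fell to 45.0% of WT (-1.15 ± 0.15, adjusted p = 0.000195). The receptor gene Acvr1c stood at 100, 109, 73.0, 134 and 100 CPM in WT and at 47.4, 33.2, 53.1, 45.2 and 38.8 CPM in KO (-1.25 ± 0.15, adjusted p = 0.000131). Both groups were well apart for ligand, antagonist and receptor. The feedback inhibitors Pmepa1 (-0.60 ± 0.10, adjusted p = 0.00162) and Skil (-0.54 ± 0.11, adjusted p = 0.00872), fell with them. Tgfb2 rose by 0.44 ± 0.12 (adjusted p = 0.0398), a call lost in 8 of 10 fits that left out a library, with up to 0.116 without WT 2, and also without the 5 ependymal libraries (0.32, adjusted p = 0.268). Acvrl1, another receptor of this family, which is not in the list and was chosen after its values were seen, was at 83.0, 92.2, 57.7, 95.5 and 79.8 CPM in WT and at 26.7, 22.9, 32.2, 35.5 and 27.2 CPM in KO (-1.50 ± 0.16, adjusted p = 5.2e-05). Without the 5 ependymal libraries the list had 6 fallers and 0 risers.

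At the synapse, the called glutamate receptor genes were mostly falls and the called vesicle genes mostly rises. Of 20 AMPA receptor subunits and auxiliary proteins, 4 fell and 1 rose, with no pore-forming subunit among them, and 2 or 3 fell with any 1 library left out. Gsg1l fell from 295 ± 27.5 to 215 ± 24.2 CPM (SD, n = 5 each; -0.45 ± 0.08, adjusted p = 0.00406) and Cacng8 from 51.5 ± 3.93 to 42.7 ± 2.72 CPM (-0.27 ± 0.06, adjusted p = 0.0171; 0.0692 without the 5 ependymal libraries), whereas Cacng7, another TARP auxiliary subunit, rose from 100 ± 8.49 to 137 ± 12.1 CPM (0.45 ± 0.07, adjusted p = 0.00151). Of 23 NMDA, kainate and metabotropic glutamate receptor genes, 4 fell and 0 rose (17.4% called), with 2 to 4 fallers when 1 library was left out (2 without KO 3, for example). Besides Grik3, the fallers included Grm4 (-0.33 ± 0.07, adjusted p = 0.0165). Baiap2, a postsynaptic scaffold of actin, stood at 765, 714, 637, 644 and 659 CPM in WT and at 534, 473, 548, 543 and 538 CPM in KO (-0.38 ± 0.07, adjusted p = 0.00628).

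Of 51 vesicle and release genes, 5 rose and 1 fell (11.8% called, beside 4.42% over all genes tested). With any 1 library left out 3 or 4 rose (3 without KO 2, for example). Syp, the vesicle protein synaptophysin, stood at 519, 477, 517, 519 and 472 CPM in WT and at 677, 605, 625, 660 and 614 CPM in KO. Its groups were tight and apart (0.34 ± 0.05, adjusted p = 0.000415). Syt5, a synaptotagmin, rose from 146 ± 15.1 to 214 ± 24.1 CPM (SD, n = 5 each; 0.55 ± 0.08, adjusted p = 0.000736). Syt10 rose by 1.03 ± 0.26 (adjusted p = 0.0344), with overlapping groups and a call lost in 8 of 10 fits that left out a library, with up to 0.0875 without WT 5, and without the 5 ependymal libraries (adjusted p = 0.136). Abat, which breaks down GABA, rose from 667 ± 26.7 to 794 ± 24.8 CPM (0.25 ± 0.05, adjusted p = 0.00469). Of 20 GABA receptor subunits 1 rose (5.00% called, near the share over all genes). Gabra5, the riser, was at 23.9, 24.0, 28.8, 20.2 and 22.7 CPM in WT and at 47.3, 52.4, 44.9, 42.7 and 49.4 CPM in KO (0.98 ± 0.10, adjusted p = 2.4e-05).

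Ion channels and transporters changed in both directions. Of 81 potassium channel genes, 8 fell and 4 rose (14.8% called, beside 4.42% over all genes tested). With 1 library left out, the fallers numbered 2 (without WT 2) to 11. Kcns1 fell from 9.31 ± 0.788 to 5.29 ± 0.489 CPM (SD, n = 5 each; -0.82 ± 0.09, adjusted p = 6.0e-05) and Kcnh3 from 169 ± 12.7 to 112 ± 16.4 CPM (-0.59 ± 0.09, adjusted p = 0.00109), whereas Kcna3 rose from 4.88 ± 0.964 to 8.98 ± 1.05 CPM (0.88 ± 0.14, adjusted p = 0.00184). Of 284 solute carrier genes, 8 rose and 11 fell (6.69% called), and 6 rose and 6 fell without the 5 ependymal libraries. Slc7a8, an amino acid transporter, had one of the tightest changes, from 77.7 to 87.5 CPM in WT to 112 to 119 CPM in KO (0.49 ± 0.05, adjusted p = 1.1e-05), and Slc24a3, a sodium, potassium and calcium exchanger, rose by 0.61 ± 0.07 (adjusted p = 5.5e-05). The abundant gene Itm2c, of the BRI2 family, rose by 0.27 ± 0.07 (adjusted p = 0.0318), in a call lost in 8 of 10 fits that left out a library, with up to 0.0869 without KO 4, while without the 5 ependymal libraries it was called at 0.38 (adjusted p = 0.0203).

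Protocadherins, adhesion molecules of neurons, were called in 22.4% of cases, beside 4.42% over all genes tested. Of 67 protocadherin genes, 11 rose and 4 fell. The count was 4 risers and 1 faller without KO 5, and likewise without the 5 ependymal libraries, and the clustered members share exons, so that their estimated counts may be split between neighbours. Pcdh20, which stands outside the clusters, rose from 10.8 ± 1.59 to 19.4 ± 1.94 CPM (SD, n = 5 each; 0.85 ± 0.11, adjusted p = 0.000242). Among 36 interferon response genes, 2 fell (5.56% called), the adjacent paralogs Ifi27l2a and Ifi27l2b, from 0.952 ± 0.309 and 1.51 ± 0.557 CPM to 0.182 ± 0.0547 and 0.135 ± 0.0477 CPM, whose counts may be shared.

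Glial, vascular and housekeeping genes were seldom called, beside a share of 4.42% over all genes tested. The lists were pooled into 3 sets after their values were seen. Over 7 lists of myelin, oligodendrocyte precursor, astrocyte, microglial, endothelial, mural and meningeal fibroblast genes, 2 of 146 tested genes were called by edgeR, Tagln and Abi3bp, both given above. Over 7 lists of oxidative phosphorylation, ribosomal, proteasome, autophagy, lysosomal and chaperone genes, 3 of 322 were called, the lysosomal genes Gla and Atp6ap2, which rose, and the chaperone gene Hspb8, which fell. Over 7 lists of neighbouring cell types (thalamic, septal, dopaminergic, cortical, choroid plexus, ependymal and subventricular), 1 of 97 was called, Zbtb18. At an unadjusted p under 0.05 the 3 sets held 12, 29 and 8 genes. DESeq2 called 2, 7 and 3 genes in them, and limma-voom 2, 4 and 2. The septal list had 2 risers without the 5 ependymal libraries.

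Genes near Akap11 on chromosome 14 were called at shares up to about that of all genes tested (4.42%). Within 5 Mb of Akap11 0 of 37 tested genes were called, within 10 Mb 4 of 82 (4.88%), and on the whole chromosome, without Akap11, 18 of 540 (3.33%). The 4 were Pcdh20, Fgf17, a fibroblast growth factor (0.934 ± 0.331 CPM in WT, 0.108 ± 0.0237 CPM in KO), the lung surfactant gene Sftpc (0.828 ± 0.403 and 0.260 ± 0.0845 CPM) and the predicted gene Gm27177, which was at 0 in WT 2 and in 4 of 5 KO libraries. All but Pcdh20 were of low level, and the calls of Sftpc (adjusted p = 0.0668) and Gm27177 (adjusted p = 0.219) were lost without the 5 ependymal libraries.

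Akap11 was reduced in every region, while few other genes were called outside striatum. In KO against WT at 12 weeks, 2 genes were called in PFC, 4 in SSC, 1 in HP, 1 in TH and 6 in SN (0.0123%, 0.0252%, 0.00608%, 0.00640% and 0.0364% of genes tested). Each count includes Akap11, which was the only gene called in HP and in TH. The change of Akap11 was -3.92, -3.91, -3.77, -3.65 and -3.65 in PFC, SSC, HP, TH and SN, and its difference from striatum did not pass (-0.24, adjusted p = 0.321). A test of the striatal change minus the mean change of the other 5 regions called 555 of 17860 genes (3.11%), 237 higher and 318 lower, and 388 of these were among the 691 called in striatum itself, which rests on the same striatal libraries. The regions carry the same sample numbers, and whether a number marks 1 animal is not stated; the fit took libraries as independent, and limma-voom with the number within genotype as a block called 699 genes, 515 of the 555 among them. Pitpnm3, at -1.69 in striatum, was between -0.33 and 0.08 elsewhere (difference -1.61, adjusted p = 9.8e-16). Adora1 lay between -0.03 and 0.14 elsewhere (difference -0.99, adjusted p = 2.8e-12), Camk2b between -0.06 and 0.14 (difference -0.40, adjusted p = 7.7e-06), Rgs2 between -0.05 and 0.09 (difference 0.65, adjusted p = 7.7e-06) and Syp between -0.10 and 0.01 (difference 0.38, adjusted p = 7.0e-07). All of these genes passed the count filter in all 6 regions. Among the striatal fallers, Gsg1l (-0.50, adjusted p = 0.0292) and Pmepa1 (-0.38, adjusted p = 0.00269) were also called in SN by edgeR. The PKA subunit gene Prkar1a, uncalled in striatum, was called in SSC (-0.25, adjusted p = 0.0398). For Htr4 the thalamic value was -2.73 (adjusted p = 0.493), and the difference did not pass (-0.90, adjusted p = 0.152). For the striatal markers Rgs9 (difference -0.50, adjusted p = 0.628) and Scn4b (-0.59, adjusted p = 0.245) the difference did not pass either. It passed for the markers Strn (-0.43, adjusted p = 0.00289) and Plxdc1 (-0.77, adjusted p = 0.00836).

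**Figure D5:**
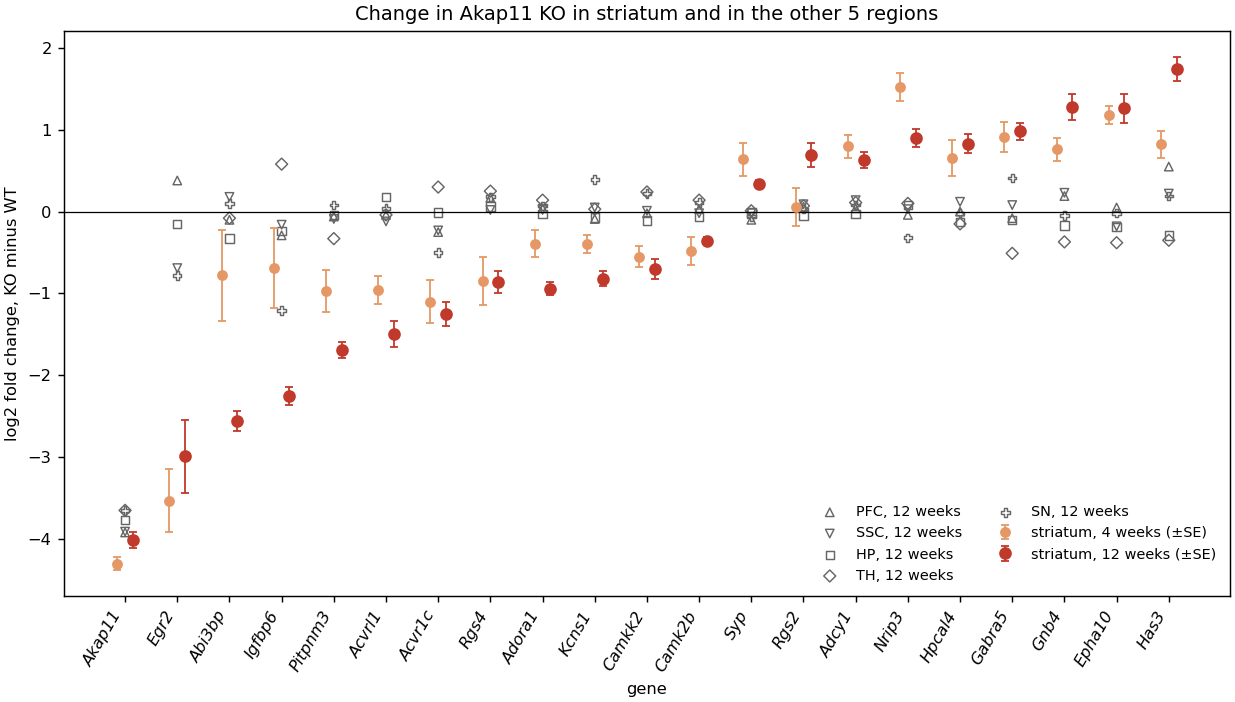
Log2 fold change (KO minus WT) of 21 genes in striatum at 12 weeks (red, ± SE), in striatum at 4 weeks (orange, ± SE) and in the other 5 regions at 12 weeks (open symbols). Akap11 is low in every region at -3.65 to -4.30, whereas Pitpnm3, Adora1 and Camk2b lie near 0 outside striatum.

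The 4-week striatum was measured in separate libraries. There 516 of 15425 genes (3.35%) were called in KO against WT. Of the 691 genes called at 12 weeks, 686 were tested at 4 weeks and 630 of them (91.8%) had a change of the same sign, beside 63.9% over all 15263 genes tested at both ages. In all, 221 genes were called at both ages, 32.0% of the 12-week calls and 42.8% of the 4-week calls, with the same sign in each case. Egr2 was at -3.53 at 4 weeks (adjusted p = 8.5e-05), Epha10 at 1.18, Nrip3 at 1.52 and Acvrl1 at -0.96. Egr1, uncalled at 12 weeks, was called at 4 weeks (-0.89, adjusted p = 0.0463). Other genes called at 12 weeks were near 0 or uncalled at 4 weeks: Rgs2 was at 0.06 at 4 weeks (adjusted p = 0.936), Chga at 0.06 (adjusted p = 0.924), Pcdh20 at -0.25 (adjusted p = 0.647) and Abi3bp at -0.78 (adjusted p = 0.518). A test of the difference between ages called 0 of 15990 genes by edgeR (0%), with 1090 genes at an unadjusted p under 0.05 and a smallest adjusted p of 0.391, and DESeq2 called 1, so none of these genes was shown to change differently at 4 weeks.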

How the data were processed

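Poly(A) RNA was measured from libraries made with a stranded mRNA kit, per the labels' protocols. The authors deposited 1 table of expected counts (estimated counts per gene symbol, 28338 symbols, 186 libraries). The submitters' processing notes name Salmon and mm10; the sources used here give no version, annotation or strand setting, so reads of overlapping antisense genes may not be separated. Groups were taken from the tissue, genotype and age labels.

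Counts were rounded to whole numbers and, for the 15 libraries of 12-week striatum, tested with edgeR 4.0.16 in R 4.3.3 (filterByExpr, TMM, quasi-likelihood test, Benjamini-Hochberg adjustment over all genes tested, called at an adjusted p under 0.05). The SE is the log2 fold change divided by the square root of F. The fit assumed no pairing. To look for pairing, the mean of the genotype was subtracted from each gene's log2(CPM + 1). These deviations correlated at -0.27 to 0.41 between same-numbered KO and WT libraries, over 0.1 in 3 of 5. DESeq2 1.42.0, limma 3.58.1 and sva 3.50.0 gave alternatives. No 2 replicates agreed within sampling noise. Coordinates are from GENCODE (GRCm38, matched by symbol for 96.9% of tested genes) and promoters from RefSeq (GRCm38.p6).

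Genes were named by rule: Akap11; the 12 largest non-overlapping rises and falls at an average log2 CPM of at least 1; up to 4 called members of each of 55 lists and 11 symbol families; the 5 most abundant called genes and the 5 largest region differences in each direction; all PKA-list members; called genes within 10 Mb of Akap11. Some genes that the rule names are not reported here. Other genes, uncalled markers included, were chosen after their values were seen. The members and lists were chosen with earlier results of these data known.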

Additional observations from a re-analysis of the deposited data

Results flagged for a closer look

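Groups of 5 libraries were examined for 1 library far from the other 4. These were 232 groups of single genes and, beside them, groups of total counts and marker scores. In all, 7 groups were flagged, the last given here being a score, and chance gives about 1 in 20. Prkar2a was 43.5 CPM in WT 3, against 31.7 to 34.5 CPM in the other WT libraries. In KO 2, Inhba was 5.10 CPM against 2.62 to 3.01 CPM in the other KO libraries, and Baiap2 was 473 CPM against 534 to 548 CPM. Kcns1 was 4.45 CPM in KO 5, against 5.34 to 5.70 CPM. Gm27177 was 0.0660 CPM in KO 3 and 0 in the other 4 KO libraries. Slc7a8 was 119 CPM in KO 1, against 112 to 114 CPM. The indirect-pathway score was 6.28 in WT 3, against 6.47 to 6.49 in the other WT libraries.

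For 53 of the 116 genes examined, the 12-week change in striatum and the average change over the other 5 regions were not equal (edgeR quasi-likelihood test of the difference, adjusted p under 0.05). Over all genes tested, 555 of 17860 (3.11%) passed. Of the 116, 90 were called in the same striatal libraries, and some were named for a large region difference. The count of 53 thus follows in large part from how the genes were chosen. The difference, on the log2 scale, was above 0 for 21 of the 53. Values above 0 included Mxd3 1.41, Has3 1.67, Gnb4 1.31, Epha10 1.40, Tunar 0.88, Adgra1 0.99, Adcy1 0.56 and Akap3 1.77. Further values above 0 were Gng4 0.86, Rgs2 0.65, Chrm5 2.42, Nrip3 0.93, Cacng7 0.40, Gabra5 1.02, Syp 0.38 and Syt5 0.60. The others above 0 were Hpcal4 0.86, Itm2c 0.36, Abat 0.33, Slc7a8 0.55 and Slc24a3 0.61. The difference was below 0 for 32 genes. Among these were Egr2 -2.77, Abi3bp -2.53, Igfbp6 -1.99, Dkk2 -1.89, Tagln -1.62, Gsk3b -0.31, Rgs4 -1.0 and Ppp3ca -0.42. Further values below 0 were Adora1 -0.99, Chga -0.44, Pcsk2 -0.38, Nxph4 -1.85, Nptx1 -1.02, Pmepa1 -0.44, Elk1 -0.45, Acvr1c -1.11 and Skil -0.51. Differences below 0 were also found for Plxdc1 -0.77, Ptprm -0.39, Strn -0.43, Zbtb18 -0.54, Camk2b -0.40, Camkk2 -0.77, Cacnb3 -0.52 and Kcns1 -0.88. The others below 0 were Ifi27l2a -2.71, Fgf17 -3.05, Sftpc -1.41, Atp2b1 -0.40, Gpr153 -0.84, Pitpnm3 -1.61 and Acvrl1 -1.50.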

How the results depend on the processing

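The number of called genes was 609 without the low-count filter, 694 with RLE size factors, 695 with limma-voom and 1032 with DESeq2, and no called gene changed sign under these or the other alternatives for this comparison. Leaving out 1 library gave 428 (without KO 5) to 891 (without WT 3), and the genes called over all lists and families but that of Gm and Rik symbols numbered 162, with 103 to 212 when 1 library was left out. Of the 90 called genes examined singly, 77 were called in each fit that left out 1 library. Without the 5 ependymal libraries, chosen after the data were seen, 384 of the 691 genes were called among 583. The difference between ages gave 1 call with DESeq2 and 0 in the other fits. With a replicate block the count was 992 (441 higher, 551 lower), 668 of them among the 691, and the region difference gave 760. The labels do not say whether the numbers pair the libraries. By the deviations from the genotype means, 4 of 10 KO and WT libraries correlated best with their own number in the other genotype, which cannot decide it.

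Uncalled genes near 0 crossed it. With the oligodendrocyte score as a covariate Prkar1b was 0.01 and Prkaca -0.02, and with limma-voom Fos was 0.09. Without the 5 ependymal libraries the values were 0.03 for Prkar1b, -0.07 for Prkacb, 0.13 for Pkia, 0.05 for Pkig, -0.02 for Vapb, 0.11 for Fos and 0.26 for Junb. Leaving out 1 library gave -0.05 to 0.04 for Prkar1b, -0.01 to 0.04 for Prkaca, -0.01 to 0.06 for Prkacb, -0.18 to 0.01 for Pkib, -0.06 to 0.02 for Pkig, -0.52 to 0.33 for Fos and -0.19 to 0.16 for Junb. The cause was not tested.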
